A study of Homo sapiens with 6 samples.

Results

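The regions described here are the METTL3 peaks that lay inside gene bodies in PC3 cells. A peak is a stretch where the METTL3 library held more signal than the control library of the same cells. A peak was taken when its summit, the position of highest signal, lay inside a protein-coding gene and more than 3 kb from the start and the end of every protein-coding gene. Of 7500 peaks in the PC3 METTL3 list, 6758 were on the chromosomes used, which are 1 to 22 and X without chromosome 8. Of these 6758, 2738 met the rule, 418 had a summit within 3 kb of a gene end, and 3602 lay between genes. The 4 lists of the series hold 10504 peaks in all.

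The study profiled METTL3 and PRMT5 on chromatin in the human prostate cancer cell lines PC3 and LNCaP. PC3 is an androgen-independent line and LNCaP an androgen-responsive one. There were 6 samples in 6 groups, 1 library each: PC3 cells with a METTL3 antibody, PC3 cells with a PRMT5 antibody, LNCaP cells with a METTL3 antibody, LNCaP cells with a PRMT5 antibody, and a control of each line. The controls are titled IgG, while their antibody field names only a secondary antibody, so the 2 labels differ. No group carried a drug, a knockdown or a genetic change by its labels. Each library came from 100000 cells and 16 PCR cycles. The cells were held on beads, and a transposase coupled to protein G cut and tagged the DNA beside the antibody. With 1 library per group there is no spread between replicates, and no difference between libraries has a replicate check.

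METTL3 is the catalytic subunit of the complex that methylates adenosine in RNA to N6-methyladenosine, called m6A. METTL14 is its partner and WTAP an adaptor. The complex works on nascent transcripts, and METTL3 has been found on chromatin, both at gene starts and along transcribed genes. PRMT5 is an arginine methyltransferase that modifies histones and splicing proteins together with its cofactor WDR77. Long genes consist mostly of introns, so a summit deep inside a gene usually lies in intronic sequence. Exons and introns were not annotated for these peaks.

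A few peaks inside genes overlapped a window around the start of a transcript, and some of these windows are shown as examples of sites under a peak. RefSeq windows that run from 250 bases before to 50 bases after a start were used, on GRCh38.p14, which has the same primary coordinates as hg38. Of 6429 such windows that lay wholly in gene-body sequence, 9 were overlapped, by 10 peaks in all. The pooled density of the peaks would give 10.0 overlaps, so the number was near what the density gives. The 4 windows shown are those of CREM, wholly under a peak, of PLEKHA6, of the nested gene LRRC18 and of the antisense transcript KRT86-AS2. In PLEKHA6 and LRRC18 the peak covered only bases before the start. Each window is written 5′ to 3′ on the strand of its transcript, with the bases under the peak in capitals.
CREM, chr10:35167314-35167613, plus strand: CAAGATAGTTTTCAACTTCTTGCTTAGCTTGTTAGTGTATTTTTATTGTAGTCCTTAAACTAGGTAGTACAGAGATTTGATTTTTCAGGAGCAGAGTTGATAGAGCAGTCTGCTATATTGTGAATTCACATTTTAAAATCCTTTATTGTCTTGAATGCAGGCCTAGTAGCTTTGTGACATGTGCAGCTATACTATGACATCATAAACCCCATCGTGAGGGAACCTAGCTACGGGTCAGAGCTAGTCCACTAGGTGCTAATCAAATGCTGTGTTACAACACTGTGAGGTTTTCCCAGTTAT
PLEKHA6, chr1:204359880-204360179, minus strand: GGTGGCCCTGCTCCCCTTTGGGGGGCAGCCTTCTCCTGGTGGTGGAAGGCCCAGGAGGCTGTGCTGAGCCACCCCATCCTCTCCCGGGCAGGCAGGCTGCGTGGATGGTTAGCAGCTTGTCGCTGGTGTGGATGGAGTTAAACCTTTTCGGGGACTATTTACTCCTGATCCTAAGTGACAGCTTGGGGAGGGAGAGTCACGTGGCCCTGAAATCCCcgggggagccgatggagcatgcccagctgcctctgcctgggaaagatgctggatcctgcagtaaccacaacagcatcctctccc
LRRC18, chr10:48925238-48925537, minus strand: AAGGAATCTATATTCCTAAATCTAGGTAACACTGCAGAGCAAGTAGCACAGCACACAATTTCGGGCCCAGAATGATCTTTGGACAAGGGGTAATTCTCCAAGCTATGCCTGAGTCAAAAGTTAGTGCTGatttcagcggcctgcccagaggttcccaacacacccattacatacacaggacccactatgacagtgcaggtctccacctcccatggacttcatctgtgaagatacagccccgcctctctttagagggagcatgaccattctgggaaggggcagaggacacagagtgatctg
KRT86-AS2, chr12:52279107-52279406, minus strand: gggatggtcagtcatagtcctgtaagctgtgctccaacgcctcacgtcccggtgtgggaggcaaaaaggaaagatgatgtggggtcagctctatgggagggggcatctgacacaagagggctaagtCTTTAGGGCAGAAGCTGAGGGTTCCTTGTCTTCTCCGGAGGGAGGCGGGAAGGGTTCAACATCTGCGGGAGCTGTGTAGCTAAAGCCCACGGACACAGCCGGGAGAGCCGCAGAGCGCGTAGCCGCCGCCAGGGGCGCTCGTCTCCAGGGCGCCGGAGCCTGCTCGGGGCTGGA

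CREM encodes a transcription factor that binds cAMP response elements, and its gene has several internal starts. The peak over the CREM window, at chr10:35167214-35167711, covered all 300 bases of it and had a fold of 5.77. Fold here is the signal at the peak over the signal expected from the control, as the authors' peak caller gave it. CREM is 86.1 kb long and held 3 of the peaks, with folds of 8.46, 6.06 and 5.77. The window in PLEKHA6, which encodes a pleckstrin homology domain protein, shared 216 bp with a peak of fold 4.54. LRRC18 lies inside WDFY4 on the opposite strand, and the start of its window is an internal one. The peak, of fold 4.44, shared 129 bp with the window, all before that start. Its summit lies in both genes and counts for both. The summit in KRT86, a keratin gene, lay 2 bp from the start of the antisense transcript KRT86-AS2, at a fold of 4.06.

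One microRNA hairpin of 725 in gene-body sequence was overlapped by a peak, against 0.734 at the pooled density. It is MIR585, in SLIT3, a secreted guidance ligand of ROBO receptors, at chr5:169263601-169263694 on the minus strand. The peak, chr5:169263582-169263967, covered the whole hairpin and had a fold of 6.35. The hairpin is given as RNA in lower case, and the mature forms with the seed, bases 2 to 8, in capitals.
MIR585 hairpin: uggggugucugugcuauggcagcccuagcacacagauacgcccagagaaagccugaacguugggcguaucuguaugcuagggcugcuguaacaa
hsa-miR-585-3p: uGGGCGUAucuguaugcua
hsa-miR-585-5p: cUAGCACAcagauacgcccaga

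Peaks inside gene bodies were close to the share that gene-body sequence gives. They made up 40.5% of the PC3 METTL3 peaks used (95% exact binomial interval 39.3 to 41.7), while gene bodies held 37.8% of the sequence considered. Peaks at gene ends were 6.19% of the list, and gene ends are 6.60% of the sequence. In the PC3 PRMT5 list, 607 of 1581 peaks, or 38.4%, were inside gene bodies and 29.5% at gene ends. In the LNCaP METTL3 list 66 of 155 peaks, or 42.6%, were inside gene bodies and 9.68% at gene ends. In the LNCaP PRMT5 list 269 of 927 peaks, or 29.0%, were inside gene bodies and 35.2% at gene ends. Intervals here and below cover counting error only, since read depths are unknown.

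The density was 2.51 peaks per Mb inside gene bodies and 2.25 per Mb between genes. The ratio of the 2 densities was 1.12 (95% interval 1.06 to 1.17). The sequence between genes includes 170.5 Mb in gene-free stretches of at least 2 Mb, which held 77 peaks. Without those stretches the density between genes was 2.46 per Mb and the ratio 1.02 (0.969 to 1.07), so the interval then covered 1. By the same measure without those stretches, the ratio was 1.59 (1.41 to 1.80) for PC3 PRMT5, 1.19 (0.837 to 1.68) for LNCaP METTL3. For LNCaP PRMT5 its interval was 0.931 to 1.30.

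Most gene-body peaks had the smallest width of their list, and few had a high fold. Their folds ran from 1.56 to 11.7 with a median of 5.09 and quartiles of 4.46 and 5.92. The median fold was 5.10 for peaks between genes and 5.01 for peaks at gene ends. The median −log10 q was 3.57 in each of the 3 classes. Of the gene-body peaks, 2045, or 74.7%, had a width of 292 bp, the smallest in the list, which was also the median width. Gene-body peaks of PC3 PRMT5, LNCaP METTL3 and LNCaP PRMT5 had smallest widths of 164, 209 and 110 bp. Their median widths were 232, 255 and 173 bp in that order. In PC3 METTL3 a fold of at least 5 was reached by 1626 gene-body peaks, or 59.4%, and a fold of at least 8 by 45, or 1.64%.

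The folds fell on a ladder of repeated values. The 8 commonest values, from 4.10 to 6.22 in steps of 0.303, held 1335 of the peaks, or 48.8%. The commonest was 5.01, with 216 peaks. The 2738 peaks took 545 distinct values in all, and a tie in fold between peaks is therefore frequent.

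**Figure D1:**
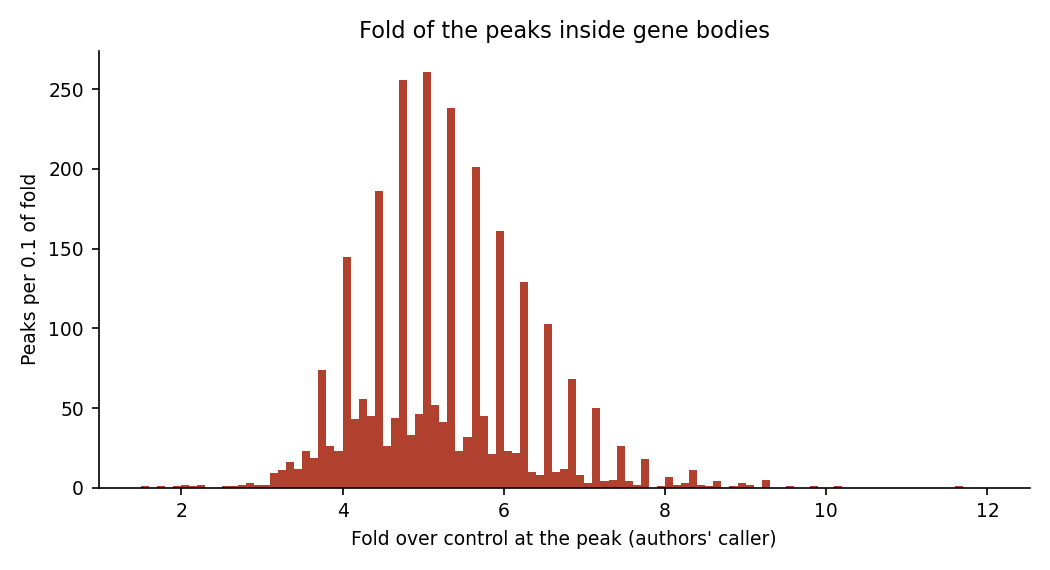
Number of gene-body peaks (vertical axis, per 0.1 of fold) against their fold over control (horizontal axis). The tall bars are the repeated values, of which the 8 commonest lie between 4.10 and 6.22, and the highest peak, in CCDC6, stands alone at 11.7.

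The highest peaks lay in genes of several kinds. CCDC6, a coiled-coil protein gene known as a fusion partner of RET in thyroid cancer, held the highest, chr10:59867588-59868235, at a fold of 11.7. CCNY, the gene of cyclin Y, held a peak of fold 9.81. CXCL12, the chemokine ligand of CXCR4, held one of 9.55. The peak in RRP15, a ribosomal RNA processing factor, had a fold of 9.28. PARD3, a cell polarity scaffold, UBE3A, a ubiquitin ligase, TRPM2, a cation channel, and SLCO6A1, an organic anion transporter, each held a peak of 9.25, a tie on the ladder.

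A further 11 of the top 20 had folds between 8.53 and 9.09. They lay in PTPRN2, WDFY4, TMEM132C, AKAP6, PTPRT, OR2L13, GPHN, EIF2AK4, ALK, ACSL6 and HHAT. ALK encodes a receptor tyrosine kinase, AKAP6 an anchor of protein kinase A, and EIF2AK4 the amino acid sensing kinase GCN2. Of the 20 peaks, 5 were on chromosome 10 and 4 on chromosome 1. Peaks of the PC3 PRMT5 list, which was called against the same control, overlapped those in TRPM2 and PTPRN2, with PRMT5 folds of 7.95 and 7.17. Of all PC3 METTL3 peaks used, 2.03% had such an overlap. No peak of either LNCaP list overlapped any of the 20, and over all PC3 METTL3 peaks used 0.207% overlapped LNCaP METTL3 and 0.547% LNCaP PRMT5, so a count of 0 of 20 is what these shares give.

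Chromosomes differed widely in the density of gene-body peaks. Chromosome 14 had 6.19 per Mb, from 212 peaks, and chromosome 13 had 0.543 per Mb, from 17 peaks, a ratio of 11.4. Chromosomes 10, 3 and 20 followed chromosome 14 with 3.86, 3.78 and 3.58 per Mb. Chromosomes 16, 22 and 9 were near the low end with 0.937, 0.961 and 0.994 per Mb. The density between genes, without gene-free stretches, was also high on chromosomes 10, 3 and 14, at 4.68, 4.69 and 4.49 per Mb. It was low on chromosome 13, at 1.01 per Mb. The part of copy number and mappability in these densities, and in those of the windows below, was not tested.

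On 18 of 22 chromosomes the interval of the body to between ratio covered 1. It lay above 1 on chromosome 14, where the ratio was 1.38 (1.14 to 1.67). The densest stretches of chromosome 14 did not all share this order. Per Mb, gene bodies had 12.2 against 14.1 between genes from 50 to 55 Mb. They had 12.1 against 9.76 from 60 to 65 Mb and 11.8 against 12.4 from 65 to 70 Mb. The interval of the ratio lay below 1 on chromosome 3, at 0.806 (0.697 to 0.931), on chromosome 10, at 0.824 (0.690 to 0.982), and on chromosome 13, at 0.540 (0.296 to 0.936). These intervals are not adjusted for the 22 chromosomes. On chromosome 14 the PC3 PRMT5 list had 29 gene-body peaks, or 0.846 per Mb. The LNCaP METTL3 list had 1 there and the LNCaP PRMT5 list 9, or 0.263 per Mb. Over all chromosomes used, PC3 PRMT5 had 0.556 gene-body peaks per Mb and LNCaP PRMT5 0.246.

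**Figure D2:**
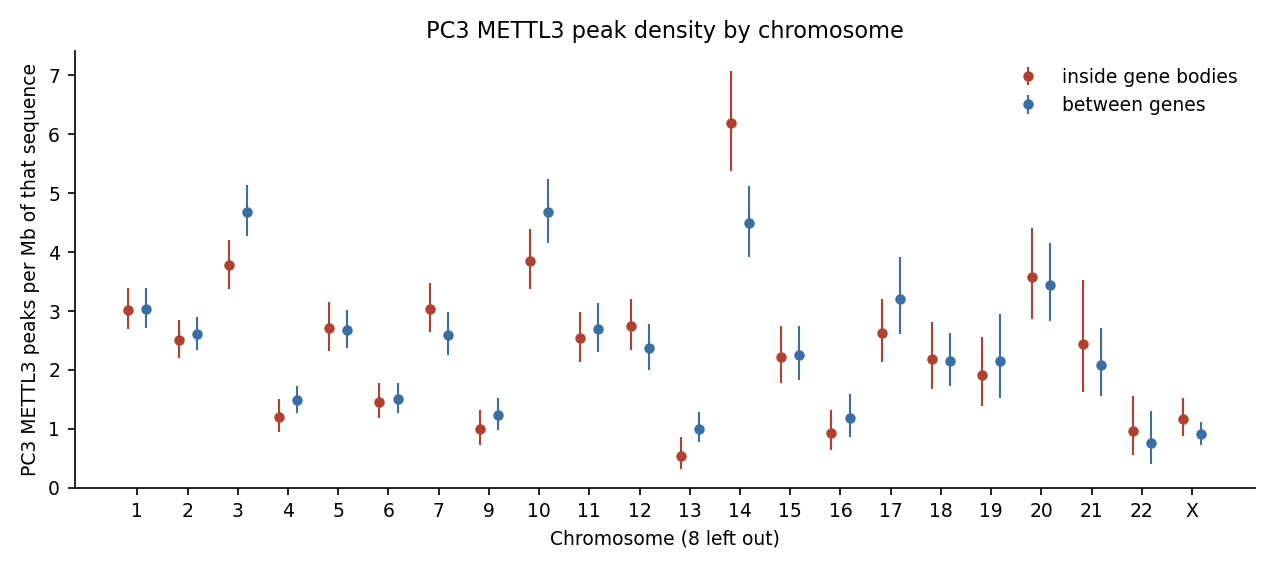
PC3 METTL3 peaks per Mb (vertical axis) on each chromosome (horizontal axis), inside gene bodies and between genes, where gene-free stretches of at least 2 Mb are left out. Points are counts divided by sequence and bars are 95% exact Poisson intervals, and chromosome 14 stands above the others inside gene bodies at 6.19 per Mb.

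Across the genome, windows with many peaks inside gene bodies also tended to have many between genes. In 527 windows of 5 Mb with at least 0.5 Mb of both kinds of sequence, density inside gene bodies ran from 0 to 12.2 per Mb with a median of 1.90. Across these windows the density inside gene bodies and the density between genes had a Pearson correlation of 0.70 and a Spearman correlation of 0.60. With each chromosome's mean subtracted, they were 0.62 and 0.53. This is a description, since both densities of a window come from 1 library and share its depth and control. In the quartile of windows with the highest density between genes, the values were 4.57 per Mb inside gene bodies and 5.61 per Mb between genes. In the quartile with the lowest, they were 1.21 and 0.566 per Mb. The windows were sorted on the density between genes, so which of the 2 densities is higher in these quartiles follows in part from the sorting.

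The density varied widely among windows. A density of at least 5 per Mb inside gene bodies was found in 57 windows. They held 904 peaks, or 33.2% of those in the windows used, in 11.7% of the gene-body sequence, shares that the choice of dense windows sets apart. Another 51 windows held none, or 9.68% of the windows. The 3 densest windows were all on chromosome 14. The window from 50 to 55 Mb held 27 peaks, at 12.2 per Mb inside gene bodies and 14.1 between genes, with MAP4K5, a kinase of the stress-activated pathways, and FRMD6, an activator of Hippo signalling, leading. The window from 60 to 65 Mb held 35, led by the potassium channel gene KCNH5 and by SYNE2, a nuclear envelope protein. The window from 65 to 70 Mb held 38, led by GPHN and by RAD51B, a homologous recombination factor.

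Chromosome 10 gave the next 3 windows. From 60 to 65 Mb it held 20 peaks inside gene bodies, at 10.9 per Mb, led by JMJD1C, and 61 between genes, at 20.3 per Mb. From 50 to 55 Mb it held 31 inside gene bodies, in PRKG1, PCDH15 and SGMS1, and from 70 to 75 Mb it held 33, led by ADK and the mitochondrial calcium uniporter gene MCU. The window at 125 to 130 Mb of chromosome 12 differed, with 20 peaks inside gene bodies, at 9.56 per Mb, against 3.90 per Mb between genes. Its peaks lay in the neighbouring genes TMEM132B, TMEM132D and TMEM132C, which encode related membrane proteins.

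**Figure D3:**
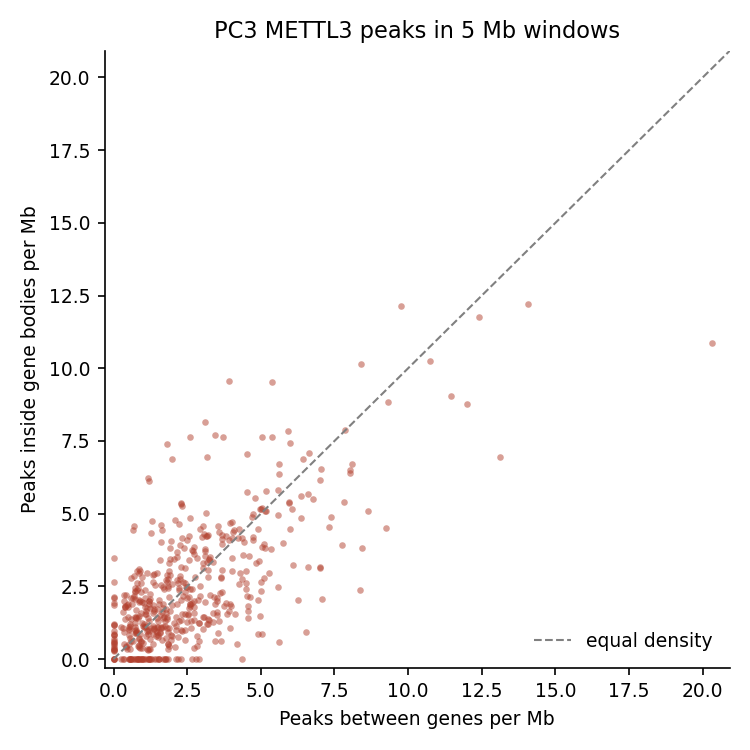
Density of PC3 METTL3 peaks inside gene bodies (vertical axis, per Mb) against density between genes (horizontal axis, per Mb) in 527 windows of 5 Mb, 1 point each. The dashed line marks equal density, and the point farthest right, with 20.3 per Mb between genes and 10.9 inside gene bodies, is the chromosome 10 window that holds JMJD1C.

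The peaks fell in 1753 genes, or 11.3% of the 15550 protein-coding genes with any sequence more than 3 kb from a gene end. Of these, 1264 held 1 peak, 279 held 2, and 210 held 3 or more. The 67 genes with 5 or more held 498 peaks. Their median length was 768 kb, against 140 kb for all genes that held a peak and 34.5 kb for all genes tested. A total of 2685 peaks lay in 1 gene and 53 in several overlapping ones.

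The share of genes with a peak followed gene length. It was 1.72% of genes under 25 kb, 12.8% of those from 50 to 100 kb, 43.7% of those from 200 to 500 kb and 89.2% of those over 1 Mb, where 58 of 65 held one. Per Mb of gene body, the density was 2.23 under 25 kb, 2.02 from 25 to 50 kb, 2.62 from 200 to 500 kb and 3.21 over 1 Mb. The peaks between genes in the same 5 Mb windows give a local reference, which is the number a gene would hold at their density. Observed over this local number, the 7 length classes from short to long gave 0.848, 0.753, 0.836, 0.865, 1.04, 0.972 and 1.13. The rise was not steady, but the classes under 200 kb gave at most 0.865 and the longer ones at least 0.972. Over all genes the 2738 peaks compare with a local number of 2936, a ratio of 0.933.

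**Figure D4:**
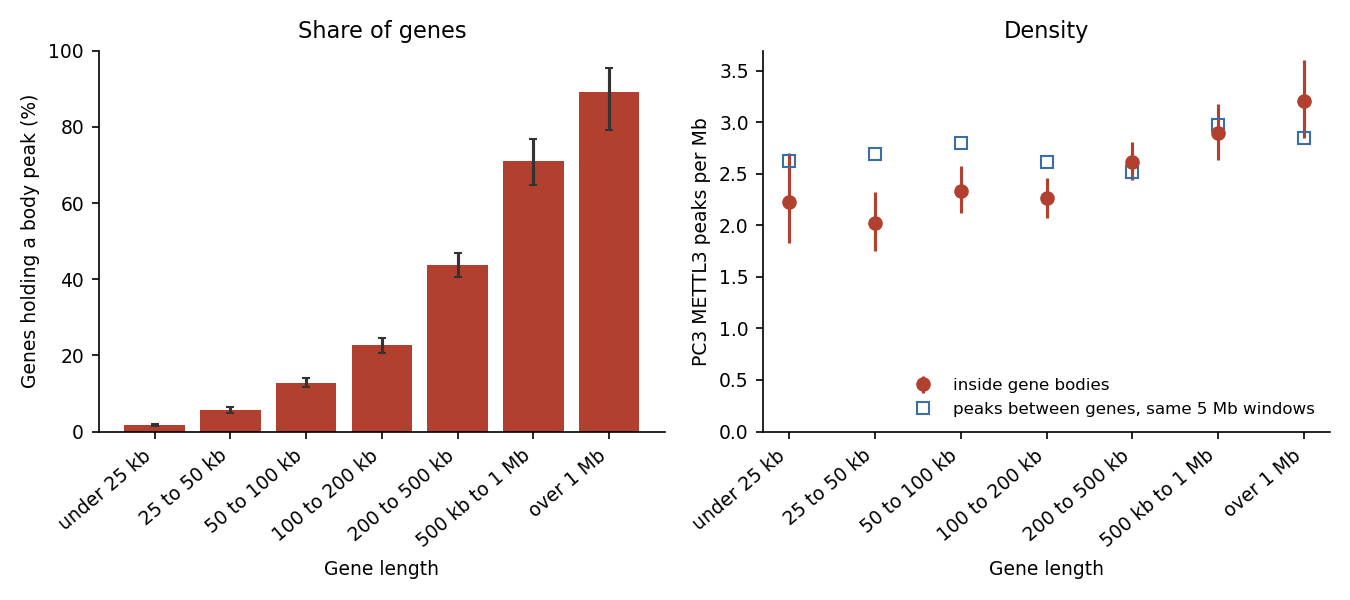
Left, share of protein-coding genes that held a gene-body peak (vertical axis, percent) by gene length (horizontal axis), with 95% exact binomial intervals. Right, gene-body peaks per Mb with 95% exact Poisson intervals (filled) and the density of peaks between genes in the same windows (open squares), with gene bodies at 2.02 per Mb from 25 to 50 kb and 3.21 per Mb over 1 Mb.

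The genes with most peaks were very long ones in dense neighbourhoods. CTNNA3, which encodes alpha-T-catenin of cell junctions, is 1851 kb long and held 20, with folds from 4.06 to 6.99. Its density of 10.9 per Mb compares with 16.2 per Mb for peaks between genes beside it, which here means within 5 Mb on either side. PCDH15, the protocadherin of hair cell tip links, held 18 with folds from 3.24 to 7.13, at 9.89 per Mb. GPHN, which encodes the inhibitory synapse scaffold gephyrin, held 17 at 15.3 per Mb, and PRKG1, the cGMP-dependent protein kinase, 16 at 12.4 per Mb. LRMDA, a gene linked to melanocyte differentiation, held 15 at 13.4 per Mb. ADK, which encodes adenosine kinase, and RGS6, a regulator of G protein signalling, held 11 each.

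A total of 11 genes held at least 10 peaks, with KCNH5, ADK, RGS6 and RAD51B tied at 11. In 6 of the 11, the density inside the gene was more than 2 times that of the peaks between genes beside it, in CTNNA3 it was lower, and in RAD51B it was 1.06 times as high. PTPRN2, a receptor-type phosphatase of secretory vesicles, held 13 at 12.5 per Mb, against 4.45 per Mb beside it. Its folds ran from 2.07 to 9.09, the widest range of these 11 genes. FHIT, a tumour suppressor that spans the fragile site FRA3B, held 12 at 8.01 per Mb, against 3.55 beside it. KCNH5 held 11 at 32.4 per Mb, against 9.28 beside it, with folds from 3.63 to 6.83. RGS6, ADK and LRMDA had 2.28, 2.01 and 2.05 times the density beside them. The local numbers, from the same 5 Mb windows, were 3.58 for PTPRN2, 3.32 for KCNH5 and 4.64 for ADK. They were 7.61 for FHIT, 8.53 for RGS6 and 10.4 for LRMDA, so these 3 held less than 2 times their local number. All 11 genes were picked for their number of peaks, which favours a high density. Of the 13 in PTPRN2, 5 were overlapped by a peak of PC3 PRMT5, at PRMT5 folds from 3.18 to 9.05, where 2.03% of all PC3 METTL3 peaks used were.

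Per Mb, shorter genes led among those with at least 5 peaks. The genes named here were picked for that density, so values above those of their surroundings are favoured by the choice. MAP4K5 held 6 in 143 kb, at 45.9 per Mb, with folds from 3.94 to 6.85. GALNT9, which encodes an enzyme that starts O-glycosylation, held 5 at 39.3 per Mb. Among these was the peak with the highest −log10 q of all gene-body peaks, 25.7, at a fold of 3.88. A peak of PC3 PRMT5 overlapped it, with a PRMT5 fold of 8.31 and a −log10 q of 44.7, where 2.03% of all PC3 METTL3 peaks used were overlapped. DGLUCY, the D-glutamate cyclase gene, held 5 at 31.4 per Mb, against 2.96 per Mb between genes beside it. JMJD1C, a member of a histone demethylase family, held 8 at 23.0 per Mb, against 15.3 beside it. SIPA1L1, CDC42BPA, TNFSF4 and SYT16, with 5 to 8 peaks each, had between 17.0 and 19.3 per Mb.

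Some long genes held no gene-body peak. There were 7 such genes over 1 Mb: CCSER1, CDH12, ADAMTSL1, LINGO2, GPC6, WWOX and IL1RAPL2. The local number for each of them was below 1.41, so few or no peaks are also what their surroundings give. CNTN4, a contactin of neuronal adhesion, held none where the local number was 8.02. LSAMP, another neuronal adhesion gene, held none against 5.32, and RABGAP1L none against 4.89. These 3 had the highest local numbers among the genes without a peak, and were picked for that.

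The genes of the profiled proteins METTL3 and PRMT5, and of their partners METTL14, WTAP and WDR77, held none of these peaks. METTL3, METTL14, WTAP, PRMT5 and WDR77 are short, with local numbers of at most 0.0124, so a count of 0 there is also what their surroundings give.

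Among 667 tested genes of 26 lists of related genes, 190, or 28.5%, held a peak. The share over all genes is 11.3%, and the lists hold many long genes. Their density was 2.96 per Mb, with 479 peaks against a local number of 456, and the density over all genes was 2.51 per Mb. Potassium channel genes had the highest density, 5.55 per Mb, with a peak in 16 of 23 genes and 44 peaks against a local number of 33.4. KCNH5 gave 11 of these and KCNMA1, the large-conductance calcium-activated channel, 6. KCNK2, a background potassium channel, held the highest of the list, at a fold of 7.43.

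Receptor tyrosine phosphatases had a peak in 10 of 20 genes, with 34 peaks at 3.93 per Mb against a local number of 18.5. PTPRN2 gave 13 of them and PTPRT, with a top fold of 8.95, gave 6. Glutamate receptors had a peak in 14 of 26 genes, with 31 peaks against a local number of 19.2. GRM7, a metabotropic receptor, gave 7 of them. Genes at common fragile sites had a peak in 21 of 24, with 106 peaks at 3.17 per Mb, against a local number of 98.1. Apart from CTNNA3, PTPRN2 and FHIT, DLG2, a synaptic scaffold, and CNTNAP2 gave 9 of them each.

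Adhesion and guidance genes were near their surroundings. Catenins and junction proteins had a peak in 8 of 21 genes, with 49 peaks against a local number of 52.0. Neurexins, neuroligins and contactins had one in 12 of 22, with 44 against 51.9. NTM held the highest of these, at a fold of 8.04. Cadherins and protocadherins had one in 11 of 27, with 37 against 33.0. Guidance genes, which comprise semaphorins, plexins, slits and netrin receptors, had one in 13 of 29, with 41 against 35.3. ROBO2 and ROBO1, receptors of slits, gave 9 against a local number of 11.5 and 8 against 7.69, and SLIT3 gave 7 against 1.32.

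Receptor tyrosine kinases had a peak in 13 of 35 genes, with 25 peaks against a local number of 19.1. ALK led at a fold of 8.65, and EGFR, the epidermal growth factor receptor gene, held 1 of 7.13. Voltage-gated calcium and sodium channels had one in 10 of 24, with 16 peaks against a local number of 12.9. GABA and glycine receptors had one in 6 of 23, with 12 against 9.91, and integrins and matrix genes in 7 of 30, with 12 against 9.33. FBN2, the gene of the matrix protein fibrillin-2, held 4 with a top fold of 8.34. Cyclic nucleotide phosphodiesterases had one in 10 of 20, with 11 peaks against a local number of 14.4. Protein kinase C, MAP kinase and PI3K genes had one in 6 of 29, with 12 peaks against a local number of 16.2 and PRKCH leading at a fold of 7.17. TGF-beta and BMP genes had one in 5 of 28, with 5 against 6.13.

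Lists tied to RNA methylation, arginine methylation and prostate cancer held from 1 to 5 of the peaks each, which is too few to set them apart from their surroundings. In the m6A machinery 2 of 22 genes, or 9.09%, against 11.3% over all genes, held 1 each, ELAVL1 at a fold of 6.22 and IGF2BP3 at 4.70, against a local number of 3.46 for the list. Both encode RNA-binding proteins that stabilise messages. Among arginine methyltransferases and methylosome genes, 1 of 20 held a peak, PRMT8 at 6.83, against a local number of 2.91.

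Prostate cancer genes had a peak in 5 of 27, or 18.5%, with 5 peaks (95% Poisson interval 1.62 to 11.7) against a local number of 10.1. These were ZBTB16 at 7.47, BRAF at 7.13, ERG at 6.52, KMT2D at 5.20 and KMT2C. ERG is the transcription factor gene fused to TMPRSS2 in many prostate tumours. Wnt and TCF genes had one in 2 of 26, with 3 peaks against 8.29, of which GSK3B held 2. Splicing regulators had one in 5 of 34, with 9 peaks against a local number of 10.3. Chromatin regulators had one in 10 of 37, with 15 against 20.5, and YAP, TEAD and AP-1 genes in 2 of 24, with 3 against 3.12. Lysosomal genes had one in 1 of 31, with 1 against 1.84, and ribosomal protein genes in 0 of 32, with 0 against 0.322. Ribosomal protein genes are short and offered 0.0728 Mb of body sequence in all.

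**Figure D5:**
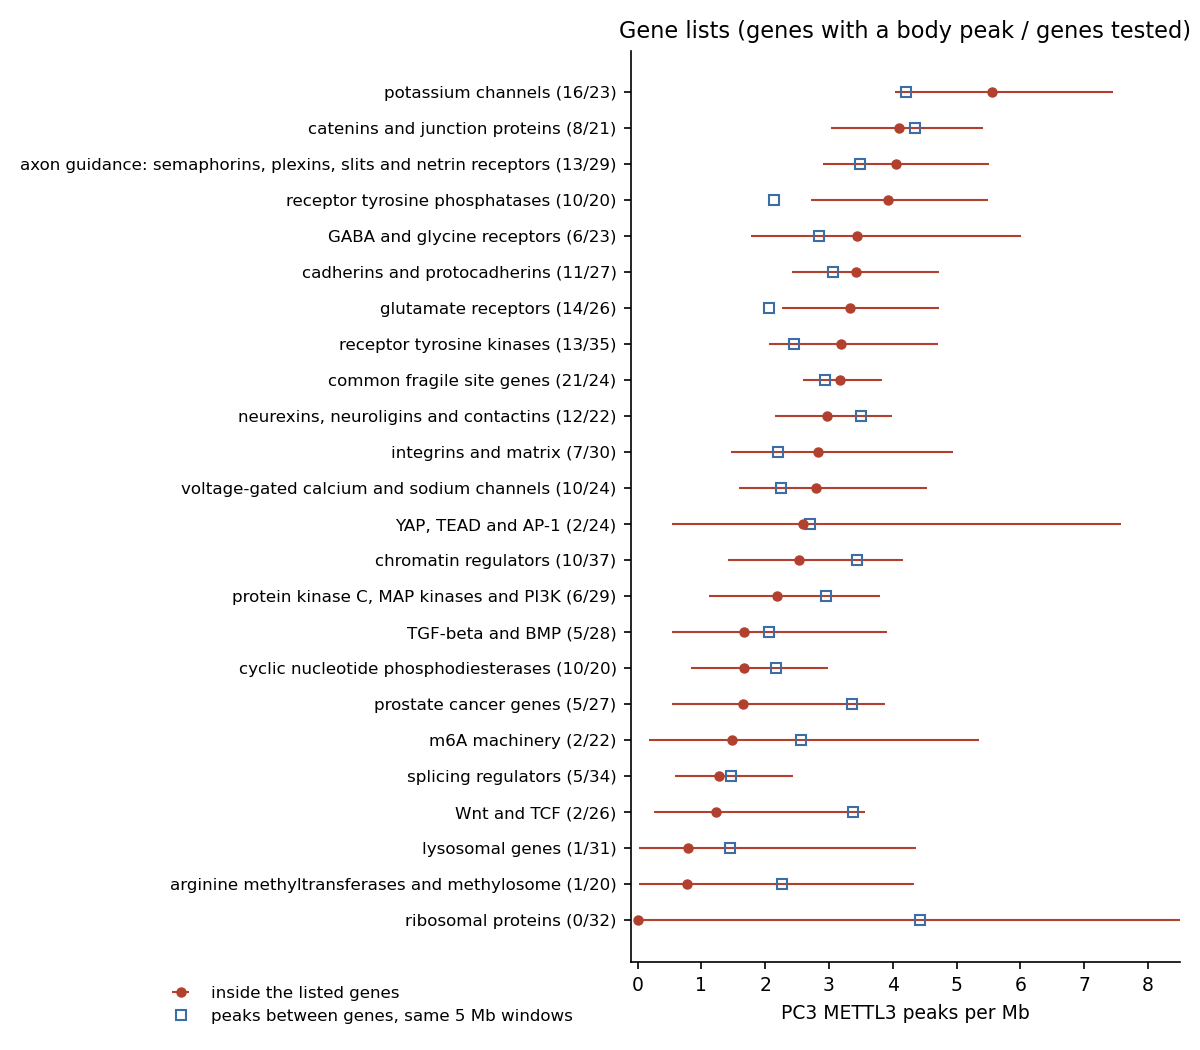
PC3 METTL3 peaks per Mb (horizontal axis) inside the genes of 24 lists (rows, with genes that held a peak over genes tested), as filled points with 95% exact Poisson intervals, and the density of peaks between genes in the same windows as open squares. Potassium channels are highest at 5.55 per Mb, and the interval of the ribosomal protein row, which has 0 peaks in 0.0728 Mb, runs past the axis.

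Position along the gene was nearly even. For 2316 peaks in genes with a known strand, the 5 equal parts of the gene from its 5′ end held 16.9%, 21.9%, 21.9%, 21.4% and 17.9%. The matching shares of gene-body sequence, which leaves out 3 kb at each end, were 17.9%, 21.4%, 21.6%, 21.3% and 17.8%. Each sequence share lay inside the 95% interval of its peak share. The peaks lay at a median of 96.5 kb from the 5′ end, and 147, or 6.35%, within 10 kb of it. The median distance to the closest gene end was 44.6 kb, and 101 kb for peaks between genes.

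Near the threshold of 3 kb, the closest peaks inside it were those in CIT, at 3005 bp with a fold of 7.43, C19orf18, at 3044 bp with 5.31, and HAO1, at 3063 bp with 3.67. The closest left out were near the ends of ARF1, at 2982 bp with 4.49, CARF, at 2981 bp with 5.61, and CFAP184, at 2963 bp with 3.32.

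The share of peaks over other kinds of gene was near their share of the sequence. Long noncoding RNA genes covered the summit of 192 peaks, or 7.01% (6.08 to 8.03), and 6.79% of gene-body sequence. Pseudogenes covered 18, or 0.657% (0.390 to 1.04), and 0.510% of the sequence. Close neighbours had a similar share inside and between genes. The nearest other PC3 METTL3 peak lay within 10 kb for 312 gene-body peaks, or 11.4% (10.2 to 12.6), and for 10.4% (9.41 to 11.4) of peaks between genes.

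Few gene-body peaks were also found with another antibody or in the other line. An overlap means that at least 1 bp is shared. With PC3 PRMT5, 58 gene-body peaks overlapped, or 2.12% (1.61 to 2.73), and 1.97% of peaks between genes did. The share over all classes was 2.03%. The 2 PC3 lists share 1 control library, so their overlap is a description. With LNCaP METTL3, 6 overlapped, or 0.219%, and 0.194% of peaks between genes, where the share over all classes was 0.207%. With LNCaP PRMT5, 14 overlapped, or 0.511%, and 0.555% of peaks between genes, where the share over all classes was 0.547%.

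The differences between peaks inside gene bodies and peaks between genes did not pass a two-sided Fisher's exact test over peaks. The p-values were 0.720 for PC3 PRMT5, 1 for LNCaP METTL3 and 0.864 for LNCaP PRMT5, and each was 1 after Benjamini-Hochberg adjustment over the 3 lists. The odds ratios were 1.08, 1.13 and 0.920 in that order. Peaks are the units of this test, so it says nothing of how far another library would differ. Seen from the other side, 59 of 607 gene-body peaks of PC3 PRMT5, or 9.72%, overlapped one of PC3 METTL3. Over all classes, 8.86% of PC3 PRMT5 peaks overlapped a PC3 METTL3 peak, and 14.2% of those between genes did. For LNCaP METTL3 it was 6 of 66 gene-body peaks, or 9.09%, and 9.03% over all classes. For LNCaP PRMT5 it was 15 of 269 gene-body peaks, or 5.58%, and 4.10% over all classes.

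In all, 67 gene-body peaks overlapped a peak of another list, 57 of them in 1 list, 9 in 2 and 1 in all 3. They were wider than the rest, with a median width of 409 bp against 292 bp and 17.9% at the smallest width against 76.1%. The part of width in the overlap was not tested. Their median fold was 4.77, against 5.12 for the 2671 that overlapped nothing.

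The single peak found in all 4 lists lay in SELP, which encodes the adhesion receptor P-selectin, at chr1:169620878-169621643. Its folds were 5.10 in PC3 METTL3, 7.19 in PC3 PRMT5, 10.5 in LNCaP METTL3 and 8.65 in LNCaP PRMT5. Peaks with the 2 METTL3 libraries were led by SLC10A7, a membrane transporter gene, at 8.26 in PC3 METTL3 and 6.06 in LNCaP METTL3. The other 4 genes beside SELP and SLC10A7 were PRKAG2, NCAPG2, MUC4 and SMOC2. In each of them the PC3 METTL3 fold was 4.35 or less. MUC4, a membrane mucin gene, held the widest gene-body peak, of 2261 bp, with a fold of 3.33 in PC3 METTL3, 10.2 in PC3 PRMT5 and 3.18 in LNCaP METTL3.

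Of the peaks shared with PC3 PRMT5, those with the largest smaller fold lay in CREM, TRPM2, CCDC192, GCOM1, FMN2 and PTPRN2. The CREM peak, at chr10:35159895-35160391 and upstream of the start window shown above, had a fold of 8.46 in PC3 METTL3 and 8.60 in PC3 PRMT5. The FMN2 peak, in the gene of an actin-nucleating formin, had 7.43 in PC3 METTL3 and 10.9 in PC3 PRMT5. Of the peaks shared with LNCaP PRMT5, IL1RAPL1 led with 7.66 in PC3 METTL3 and 6.71 in LNCaP PRMT5. BCL2, the inhibitor of apoptosis, had 6.83 in PC3 METTL3 and 6.43 in LNCaP PRMT5. RBPJ, the DNA-binding effector of Notch signalling, had 7.13 in PC3 METTL3, 7.95 in PC3 PRMT5 and 6.16 in LNCaP PRMT5. The peak in LOC102724813, at chr9:9986-10404, had 5.84 in PC3 METTL3, 28.6 in PC3 PRMT5 and 8.56 in LNCaP PRMT5. It lies at the very start of the chromosome's numbering.

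A gene is a larger unit than a peak, and 11.3% of all tested genes held a gene-body peak of PC3 METTL3. Of 442 genes with a gene-body peak of PC3 PRMT5, 142, or 32.1%, also held one of PC3 METTL3, which is 8.10% of the 1753 PC3 METTL3 genes. For LNCaP METTL3 it was 30 of 60 genes, or 50.0%, which is 1.71% of the 1753. For LNCaP PRMT5 it was 68 of 222, or 30.6%, which is 3.88% of the 1753. The shared genes were long, with median lengths of 195 kb, 420 kb and 328 kb in that order. All genes with a gene-body peak in those lists had medians of 76.5, 198 and 102 kb, against 34.5 kb for all genes tested. The part of length in the sharing was not tested.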

How the data were processed

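The 6 libraries were made with an in-situ chromatin assay from 100000 cells each, per the labels' protocols. The submitters' processing notes name bcl2fastq 2.17, Trimmomatic 0.33, Bowtie 1.1.1, MACS2 2.1.0, ChIPseeker and hg38. The sources used here do not say how duplicates and the transposase offset were handled. Peaks were called per library against the control of the same line, and read depths are unknown, so a longer list may reflect depth. The authors deposited for each peak a score, which was 10 times the −log10 q, a fold (a ratio over the control), −log10 p, −log10 q and a summit. They served to describe, rank or filter peaks of 1 list. In the PC3 METTL3 list q reached 0.0494.

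From these files, peaks were classed by summit with the RefSeq gene table of GRCh38.p14, which gave 19259 protein-coding genes on the chromosomes used. Strand was known for 12969 genes with body sequence, from the RefSeq start windows. Sequence considered runs from the outermost gene or peak to the other on each chromosome. Python 3.11.15, numpy 2.4.6, pandas 2.3.3 and scipy 1.17.1 were used. Shares have Clopper-Pearson intervals at 95%, density ratios exact intervals from the binomial split of the 2 counts, and overlaps a two-sided Fisher's exact test adjusted by Benjamini-Hochberg over 3 lists. Classing and overlaps were tested on simulated peaks. The classes, gene lists and members were chosen with earlier results of these data known. Named were the 20 peaks of highest fold, the 6 shared peaks per list with the largest smaller fold, the 3 peaks nearest the threshold on each side, the 10 genes with most peaks, the 10 densest with at least 5, up to 4 genes per list by highest fold, and METTL3, METTL14, WTAP, PRMT5 and WDR77. Some genes and gene lists that the rule names are not reported here. Genes of the densest windows, the widest peak and that with the highest −log10 q, genes without a peak, genes at the printed sequences and a few list genes with many peaks were named after their values were seen. No genome sequence was used, so exons, introns, repeats and motifs were not examined. Peak positions cannot check the identity of a cell line.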

Additional observations from a re-analysis of the deposited data

How the results depend on the processing

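No paired analysis was possible because each group has 1 library. A stricter −log10 q of at least 3 or fold of at least 5 left the share inside gene bodies and the density ratio within their intervals. Taking 1 kb or 10 kb as a gene end gave a share of 42.7% or 34.8%, and 40.3% or 31.6% of the sequence is then gene body. Leaving out gene-free stretches, chosen after seeing the data, gave a density ratio of 1.02. Leaving out each chromosome in turn gave ratios from 1.08, without chromosome 14, to 1.15, without chromosome 3. Peaks with a −log10 q of at least 3 had a median fold of 5.61, since low peaks are removed. They lay in 1122 genes, and peaks with a fold of at least 5 in 1163. Requiring 50% of both peaks left 37, 2 and 4 overlaps with PC3 PRMT5, LNCaP METTL3 and LNCaP PRMT5, while a gene end of 10 kb left 1427 genes with a peak. None of the 10 overlap alternatives passed Fisher's exact test, with a smallest adjusted p of 0.518. Unknown depth limits each count.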
